A study of Mus musculus with 12 samples.

Results

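The genes described here are the 8 that encode the subunits of 2 protein phosphatases in mouse male germ cells, calcineurin and protein phosphatase 1 (PP1). They were chosen by gene symbol, from what the proteins do, with earlier results of these data known. They are 8 of the 22552 symbols measured. Ppp3ca, Ppp3cb and Ppp3cc encode the catalytic subunits of calcineurin, Ppp3r1 and Ppp3r2 its regulatory subunits, and Ppp1ca, Ppp1cb and Ppp1cc the catalytic subunits of PP1. All 8 passed the filter on low values, an FPKM (fragments scaled to transcript length and to library depth) of at least 1 in at least 2 libraries.

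Calcineurin is a phosphatase that is switched on by calcium and calmodulin and works as a pair of 1 catalytic and 1 regulatory subunit. In most tissues the regulatory subunit comes from Ppp3r1, whereas mouse sperm carry a form made of the Ppp3cc and Ppp3r2 products that sperm motility and male fertility need. PP1 removes phosphates from a very wide range of proteins, and its partners decide where and on what it acts. Ppp1cc yields a form found throughout the body and a splice form enriched in testis, and mice without Ppp1cc have infertile males. The files give 1 value per gene and cannot separate these splice forms.

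RNA was sequenced from male germ cells of F1 mice from DBA/2 and C57BL6, a cross that all groups share, with 2 libraries per group. Primitive type A spermatogonia (priSG-A, the mitotic precursors) came from mice at 7 days postpartum (dpp), preleptotene spermatocytes (plpSC, about to enter meiosis) and pachytene spermatocytes (pacSC, in meiotic prophase) from mice at 17 dpp, and round spermatids (rST, haploid cells) from adults at 60 dpp. These cells were separated by size with STAPUT sedimentation, so a fraction can hold other cells of like size, and stage is confounded with age except between plpSC and pacSC. Cultured spermatogonial stem cells (SSCs) of 5 dpp mice gave 4 further libraries, 2 treated with RNase R, which digests linear RNA, and 2 untreated, for which only circular RNAs (circRNAs) are listed. Nothing says that replicates came from separate animals or cultures, so the p-values measure the spread between these libraries, which may be technical.

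Depth recovered from the confidence bounds lay between 23520428 and 34923931 fragments per germ cell library. Pearson's r between the replicates of a stage, across genes on the log2 scale, was lowest for plpSC (0.935) and highest for rST (0.994), and plpSC replicate 1 was nearer to the pacSC libraries (0.937 and 0.939) than to its own replicate. Spermatogonial markers, all 8 of them at or above 1 FPKM in priSG-A, summed to 406 to 448 FPKM there and to 51.4 and 89.6 in plpSC. The 6 meiotic entry markers summed to 272 and 248 FPKM in priSG-A, which was more than the 122 and 199 in plpSC. Of these markers, Stra8 and Mcm2 were higher in priSG-A, Rec8, Spo11 and Prdm9 were higher in plpSC, and Dmc1 overlapped. Pachytene markers summed to 29.3 to 32.9 FPKM in priSG-A, 269 to 394 in plpSC and 1054 to 1089 in pacSC. The 8 round spermatid markers summed to 34725 and 39779 FPKM in rST, with 437 and 5487 in pacSC, 1255 and 499 in plpSC replicates 1 and 2, and 155 and 20.2 in priSG-A. The 7 Sertoli cell markers matched, all at or above 1 FPKM in priSG-A, summed to 1062 and 1102 FPKM there, to 133 and 207 in plpSC, and then to 77.3 and 104 (pacSC) and 24.8 and 17.7 (rST). Leydig cell markers summed to 225 and 182 FPKM in priSG-A and to 93.3 and 87.3 in plpSC. They summed to 43.5 and 834 FPKM in pacSC replicates 1 and 2, and to 102 and 89.7 in rST. In plpSC stromal markers summed to 112 and 421 and erythroid markers to 197 and 405. The part that these other cells play in the phosphatase values was not tested. In bulk RNA, fewer cells of a type and less RNA per cell cannot be told apart.

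The promoters of 3 members are shown, for the pair of regulatory calcineurin genes, whose shares change places below, and for Ppp1cc, the largest part of PP1 after the spermatogonial stage. They are RefSeq sequences of build GRCm38.p6, cut to the bases upstream of both the RefSeq and the GENCODE start, written 5′ to 3′ on the strand of the gene, with CpG dinucleotides in capitals. Ppp3r2 (chr4:49682025-49682233, minus strand) has 4 CpGs in 209 bases, Ppp1cc (chr5:122158025-122158274, plus strand) has 33 in 250 bases, and Ppp3r1 (chr11:17159048-17159262, plus strand) has 22 in 215 bases.
Ppp3r2 promoter: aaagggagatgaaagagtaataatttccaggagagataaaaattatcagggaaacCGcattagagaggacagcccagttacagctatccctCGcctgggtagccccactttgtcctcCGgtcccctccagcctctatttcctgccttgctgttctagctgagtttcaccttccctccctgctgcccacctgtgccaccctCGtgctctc
Ppp1cc promoter: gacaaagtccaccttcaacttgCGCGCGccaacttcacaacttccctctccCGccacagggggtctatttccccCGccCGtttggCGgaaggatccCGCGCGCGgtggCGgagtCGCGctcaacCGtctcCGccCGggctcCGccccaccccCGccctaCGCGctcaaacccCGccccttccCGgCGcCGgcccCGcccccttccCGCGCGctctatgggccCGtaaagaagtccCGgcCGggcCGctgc
Ppp3r1 promoter: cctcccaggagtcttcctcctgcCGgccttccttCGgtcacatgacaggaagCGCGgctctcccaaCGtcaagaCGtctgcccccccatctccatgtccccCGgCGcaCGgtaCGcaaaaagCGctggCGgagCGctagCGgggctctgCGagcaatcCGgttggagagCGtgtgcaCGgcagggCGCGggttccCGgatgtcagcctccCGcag

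The RefSeq promoter table held 5 of the 8 members, the others being Ppp3cb and Ppp1cb. Over the whole 250 bases upstream of the RefSeq start, Ppp3r2 had 9 CpGs, more than 59.67% of the 32851 promoters in the table, whose median was 6. Ppp1cc had more than 95.97% and Ppp3r1 more than 93.22% of promoters. The GC box GGGCGG, searched on both strands, occurred 6 times in Ppp1cc, 4 times in Ppp3r1, 2 times in each of Ppp3cb and Ppp1cb and 0 times in Ppp3r2, against a share of 32.74% of all promoters with at least 1 match. The cyclic AMP response element TGACGTCA, present in 1.546% of promoters, was in none of the 5, and its shorter form TGACG (17.77% of promoters) was in Ppp3r1 alone, at 1 place. The MYB core AACNG, in 74.19% of promoters, matched 5 times in Ppp3r2, 5 times in Ppp3cb, 3 times in Ppp1cb, 2 times in Ppp1cc and 1 time in Ppp3r1. The motif search covered the whole 250 bases, which is more than is printed above for Ppp3r2 and Ppp3r1. All GC box matches of Ppp3r1 lay in the bases left out of its printed promoter, so the printed sequence holds none. The MYB matches of Ppp3r2 nearest to the RefSeq start also lay in bases that are not printed. These are matches of letters in a window, not binding sites.

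In the mm9 coordinates of the files, Ppp3ca lies on chromosome 3 from 136333734 to 136598743, Ppp3cb on chromosome 14 from 21318536 to 21365795, Ppp3cc on chromosome 14 from 70617705 to 70689256 and Ppp3r1 on chromosome 11 from 17059301 to 17100383. Ppp1ca lies on chromosome 19 from 4192174 to 4195419, Ppp1cb on chromosome 5 from 32761343 to 32796085 and Ppp1cc on chromosome 5 from 122608288 to 122625278. Ppp3r2 is a compact gene on chromosome 4 from 49691619 to 49694855, wholly inside the locus of the glutamate receptor gene Grin3a and, in GENCODE, on the same strand. Grin3a did not exceed 0.0864 FPKM in any of the 8 libraries. Ppp1ca overlaps the end of Rad9, a checkpoint gene at 2.34 to 6.62 FPKM, and Ppp3cb overlaps 1810062O18Rik, at 0.142 to 4.11 FPKM. In these mm9 loci no other member overlaps a gene. In GENCODE every member overlaps another gene, among them Wdr92 at Ppp3r1, Gm49288 at Ppp3cc and Gm42748 at Ppp1cc, each on the same strand. No strand is stated for the counting, so reads in all these overlaps are uncertain. No stretch of 50 bases was shared between the GENCODE transcripts of any pair of members, and stretches of 25 bases were shared only by Ppp1ca and Ppp1cc, which had 20 such stretches in common.

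The sperm calcineurin genes were the members that rose most. Ppp3r2 was measured at 1.77 and 0.291 FPKM in priSG-A replicates 1 and 2, at 147 and 62.6 in plpSC, at 159 and 123 in pacSC, and then at 136 and 134 in rST. The 2 priSG-A libraries were far below all 6 others, and the 3 later stages overlapped in part. The lower priSG-A value rests on 41 fragments and the higher on 217, and the library with the higher value also had the higher sum of round spermatid markers (155 against 20.2 FPKM). In plpSC, replicate 1 was higher for Ppp3r2, for pachytene markers (394 against 269 FPKM) and for round spermatid markers (1255 against 499). It was lower for spermatogonial markers (51.4 against 89.6) and meiotic entry markers (122 against 199). The part that RNA of other stages plays in the plpSC values was not tested. On the scale of log2(FPKM + 1), used for every change below and given with its standard error, Ppp3r2 rose by 5.68 ± 0.47 (SE) from priSG-A to plpSC (limma, adjusted p = 0.000181). Its later changes, 0.54 ± 0.47 into pacSC and -0.05 ± 0.47 into rST, did not pass the test.

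Ppp3cc, the catalytic partner of the Ppp3r2 product in sperm, stood at 12.9 and 13.4 FPKM in priSG-A, 124 and 64.4 in plpSC, 125 and 98.9 in pacSC and, lastly, 113 and 121 in rST. Spermatogonia were again lowest with no overlap, and the later stages were interleaved. Within plpSC, Ppp3cc was higher in replicate 1, as were Ppp3r2 and the pachytene and round spermatid markers, and their part was not tested. Ppp3cc rose by 2.68 ± 0.32 at the first step (limma, adjusted p = 0.000407) and by 3.06 ± 0.32 from priSG-A to rST (adjusted p = 7.1e-05). Unlike Ppp3r2 it was already well above 1 FPKM in spermatogonia.

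Among the somatic isoforms of the catalytic subunit, Ppp3ca (the alpha form, abundant in brain) was higher after the spermatogonial stage. It was at 15.6 and 15.3 FPKM in priSG-A, 51.5 and 27.1 in plpSC, 66.3 and 53.6 in pacSC, and then 41.9 and 39.7 in rST. Pachytene spermatocytes were the highest group and did not overlap the others, and plpSC and rST overlapped. The rise at the first step was 1.22 ± 0.30 (limma, adjusted p = 0.00922), and the drop into rST, -0.54 ± 0.30, did not pass the test (adjusted p = 0.218). Without priSG-A replicate 2 the first rise missed the threshold (adjusted p = 0.0501), and without plpSC replicate 1 it was 0.77. The drop into rST passed after quantile normalization (-0.76, adjusted p = 0.0259), after rescaling without the small RNAs Rpph1, Rmrp and Rprl3 (-0.95, adjusted p = 0.0134), with a weight per library, and without either plpSC library (adjusted p = 0.0457 or less).

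Ppp3cb (the beta form, found in many tissues) was the least expressed catalytic gene of calcineurin in every library. It was at 7.69 and 7.70 FPKM in priSG-A, 3.86 and 7.36 in plpSC, 4.03 and 3.83 in pacSC and, lastly, 2.26 and 2.06 in rST. The spermatid values were below all others and the spermatogonial values above all others. None of the adjacent steps passed the test, whereas the change over the whole course, -1.46 ± 0.27, did (limma, adjusted p = 0.00134). It was -0.80 after quantile normalization and -0.81 after median centring, and passed in both. The step into rST (-0.64 ± 0.27, adjusted p = 0.109) passed without either plpSC library (adjusted p = 0.00686 and 0.00679).

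Ppp3r1, which gives the regulatory subunit in most tissues, was at 29.8 and 28.0 FPKM in priSG-A, 6.76 and 11.7 in plpSC, 2.30 and 3.43 in pacSC, and then 7.53 and 7.06 in rST. It was highest in spermatogonia and lowest in pachytene spermatocytes, with no overlap of either with another stage. It fell by 1.59 ± 0.28 into plpSC (limma, adjusted p = 0.00209) and by 1.38 ± 0.28 into pacSC (adjusted p = 0.0160), and rose by 1.12 ± 0.28 into rST (adjusted p = 0.0193). The fall into pacSC did not pass without pacSC replicate 1, and the rise into rST did not pass without that library or without either rST library. The fall also did not pass with a weight per library, with only the 4 libraries compared or with no filter, nor the rise with no filter or after rescaling without 3 abundant small RNAs (0.76, adjusted p = 0.146, the highest of all these). Markers of stromal cells (9.24 and 21.0 against 95.1 and 61.4 FPKM) and of macrophages (7.87 and 7.10 against 47.8 and 38.5) were also lower in pacSC than in rST. Endothelial and erythroid markers were lower in pacSC too. Sertoli cell markers were higher in pacSC (77.3 and 104 against 24.8 and 17.7), and Leydig cell markers overlapped (43.5 and 834 against 102 and 89.7). The part of these cells in this result was not tested.

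**Figure D1:**
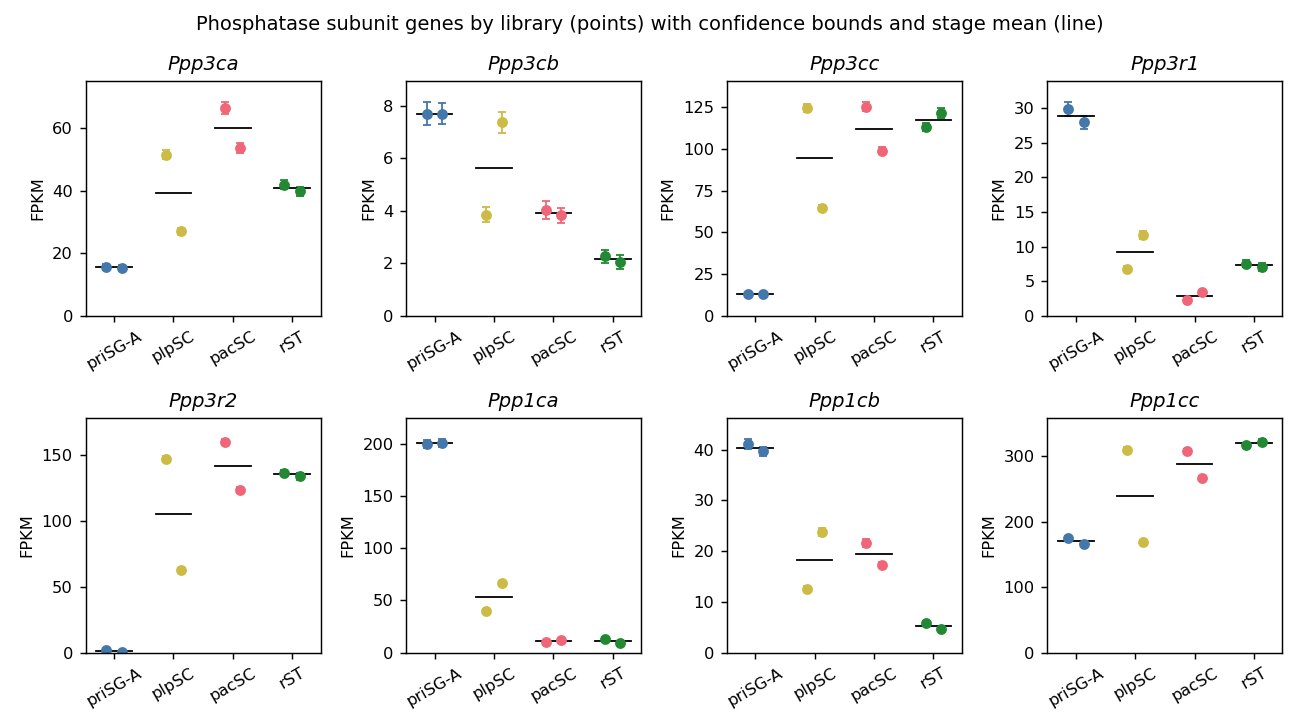
FPKM of the 8 genes in each of the 8 libraries, with the deposited confidence bounds as error bars and the mean of the 2 libraries of a stage as a line. Each panel has its own linear axis from 0. Ppp3cc and Ppp3r2 are low in priSG-A and high afterwards, Ppp1ca runs the other way, and the 2 plpSC points lie apart in every panel.

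Of the PP1 genes, Ppp1ca (the alpha form, present in most cells) fell most. It was at 199.9 and 200.6 FPKM in priSG-A, 39.5 and 66.3 in plpSC, 10.2 and 12.3 in pacSC and, lastly, 12.8 and 9.36 in rST. Spermatogonia and preleptotene cells each stood above all later libraries, and pachytene cells and spermatids overlapped. Ppp1ca fell by 1.95 ± 0.29 into plpSC (limma, adjusted p = 0.000976) and by 2.10 ± 0.29 into pacSC (adjusted p = 0.00734), and from priSG-A to rST it fell by 4.07 ± 0.29 (adjusted p = 3.22e-05). With a weight per library the fall into pacSC did not pass (adjusted p = 0.0684). Sertoli cell markers also fell into plpSC and pacSC. Unlike Ppp1ca they fell again into rST, from 77.3 and 104 FPKM in pacSC to 24.8 and 17.7. Spermatogonial markers fell into plpSC and pacSC too, and their sums overlapped between pacSC and rST, as did Ppp1ca. The part of either cell type in this result was not tested.

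Ppp1cb (the beta form, a subunit of myosin phosphatase) was at 41.1 and 39.7 FPKM in priSG-A, 12.5 and 23.8 in plpSC, 21.6 and 17.3 in pacSC, and then 5.93 and 4.59 in rST. Preleptotene and pachytene values overlapped, with spermatogonia above them and spermatids below. It fell by 1.18 ± 0.31 into plpSC (limma, adjusted p = 0.0112) and by 1.71 ± 0.31 into rST (adjusted p = 0.00780). The first of these falls did not pass without either priSG-A library or with edgeR on fragments recovered from the bounds (highest adjusted p = 0.0865) and was -0.74 without plpSC replicate 1, and the other did not pass without rST replicate 2 (adjusted p = 0.0783).

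Ppp1cc was the most abundant member in 6 of the 8 libraries, the exceptions being those of priSG-A, where Ppp1ca was higher. It was at 175 and 166 FPKM in priSG-A, 309.9 and 169 in plpSC, 308 and 267 in pacSC and, lastly, 317 and 322 in rST. Spermatids were highest without overlap, and 1 plpSC library was at the level of spermatogonia while the other was near that of spermatids. No adjacent step passed the test, and the rise from priSG-A to rST was 0.90 ± 0.32 (limma, adjusted p = 0.0307). This call did not pass without either priSG-A library or either rST library (highest adjusted p = 0.147), nor after quantile normalization, after rescaling without 3 abundant small RNAs or with no filter (highest adjusted p = 0.182). The rise was 0.24 after quantile normalization and 0.41 after that rescaling, but 1.55 after median centring (adjusted p = 0.00723) and 1.54 with edgeR on fragments recovered from the bounds (adjusted p = 0.00354). The test over the 4 stages gave an adjusted p of 0.104.

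The count of changed members was read against that of all genes, since most genes changed over this course. From priSG-A to plpSC, 6 of the 8 passed the test, Ppp3ca, Ppp3cc and Ppp3r2 higher and Ppp3r1, Ppp1ca and Ppp1cb lower, against 65.7% of the 14111 genes tested (24.4% higher and 41.3% lower). The count was 4 without priSG-A replicate 2, where Ppp3ca and Ppp1cb did not pass, and 8 without plpSC replicate 2, where Ppp3cb and Ppp1cc passed too. From plpSC to pacSC it was 2 of 8, Ppp3r1 and Ppp1ca, both lower, against 25.8% of all genes (4.22% higher and 21.6% lower). Of all the genes called at that step 16.3% were higher, but 53.4% after quantile normalization and 52.3% once all libraries had been centred on the same median. Without plpSC replicate 1 the step gave 6 calls among the members, with Ppp3ca, Ppp3cb, Ppp3cc and Ppp1cc added, and without pacSC replicate 1 it gave 1. From pacSC to rST it was also 2 of 8, Ppp3r1 higher and Ppp1cb lower, against 34.4% (17.7% higher and 16.7% lower). It was 4 without either plpSC library, 1 without pacSC replicate 1 or rST replicate 1, and 0 without rST replicate 2.

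From priSG-A to rST all 8 members passed, 4 higher (Ppp3ca, Ppp3cc, Ppp3r2 and Ppp1cc) and 4 lower (Ppp3cb, Ppp3r1, Ppp1ca and Ppp1cb), against 83% of all genes (29.5% higher and 53.6% lower). Of all called genes 35.5% were higher as deposited and 48.0% after median centring. Over the 4 stages 7 of 8 passed, against 88.5%. The median gene changed by -0.35 into plpSC, -0.25 into pacSC, -0.03 into rST and -0.76 over the whole course, and the changes of single genes are to be read relative to these. Ppp3r1 changed by -1.20 in place of -1.85 after median centring, and Ppp3ca by 0.87 after rescaling and 2.03 with edgeR in place of 1.34. The direction of each of the 8 changes from priSG-A to rST was the same under quantile normalization and median centring.

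**Figure D2:**
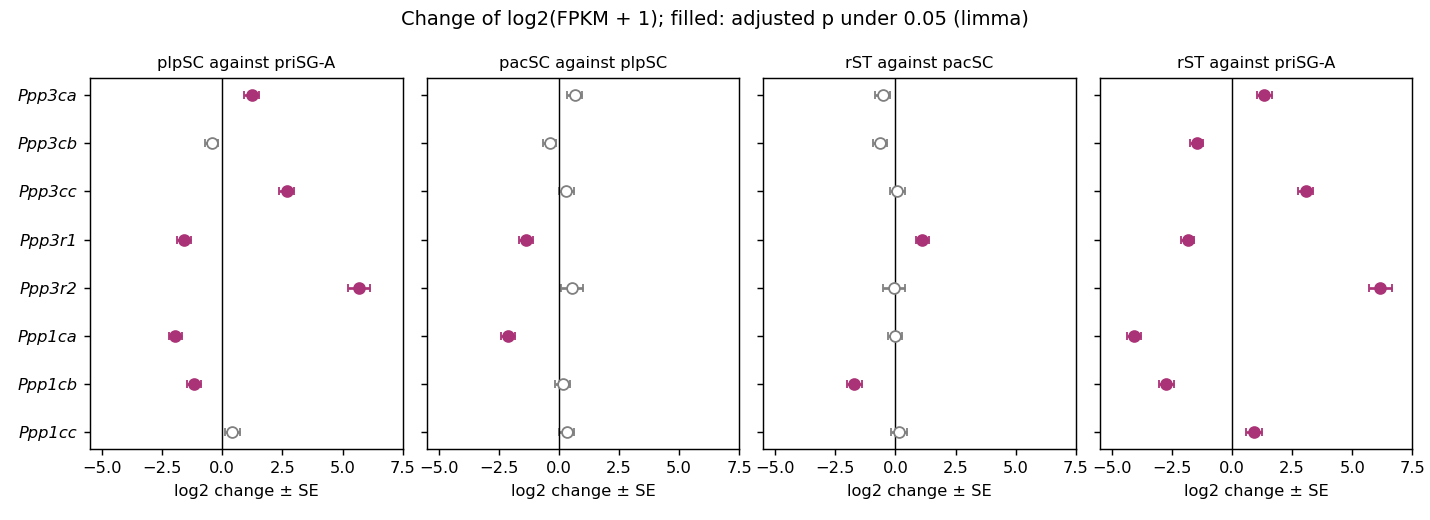
Change of log2(FPKM + 1) with its standard error for the 8 genes in 4 comparisons of stages, 2 libraries per stage. Filled points passed limma at an adjusted p under 0.05: 6 genes at the first step, 2 at each of the next, and 8 from priSG-A to rST.

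The levels per length were next added up within each family to ask which isoform made up most of it. In priSG-A, Ppp3cc gave 35.5% and 36.8% of the catalytic calcineurin FPKM in the 2 libraries. It gave 69.2% and 65.2% in plpSC, 64.0% and 63.3% in pacSC, and then 71.9% and 74.4% in rST. The shares of the 6 later libraries were all above those of the spermatogonia. An exact permutation test over the 4 stages gave p = 0.00952, the smallest it can give with 8 libraries, and 0.0190 after adjustment over the 4 quantities tested this way. Without either pacSC library or without rST replicate 2 the test did not pass (adjusted p = 0.0762). Ppp3ca still made up 24.3% to 34.3% of the catalytic FPKM in the later libraries, and Ppp3cb 1.26% to 7.45%.

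The regulatory subunits changed places more fully. Ppp3r2 gave 5.59% and 1.03% of the regulatory FPKM in priSG-A, 95.6% and 84.3% in plpSC, 98.6% and 97.3% in pacSC and, lastly, 94.8% and 94.98% in rST. All 6 later libraries were far above spermatogonia, yet the exact permutation test over stages (p = 0.0476, adjusted p = 0.0635) did not pass after adjustment, and plpSC, with a mean share of 89.9% ± 8.00 (SD, n = 2), spread most. Without either plpSC library the adjusted p was 0.0127.

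Ppp1cc gave 42.0% and 40.8% of the PP1 FPKM in priSG-A, 85.6% and 65.2% in plpSC, 90.6% and 90.0% in pacSC, and then 94.4% and 95.8% in rST. The stages did not overlap and were ordered as in development (exact permutation test, p = 0.00952, adjusted p = 0.0190). The test did not pass without any 1 of the pacSC and rST libraries (adjusted p = 0.0762). The share of Ppp1ca went from 48.1% and 49.4% to 3.82% and 2.79%, while Ppp1cc itself rose less than 2-fold in mean FPKM, by 1.88 times.

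**Figure D3:**
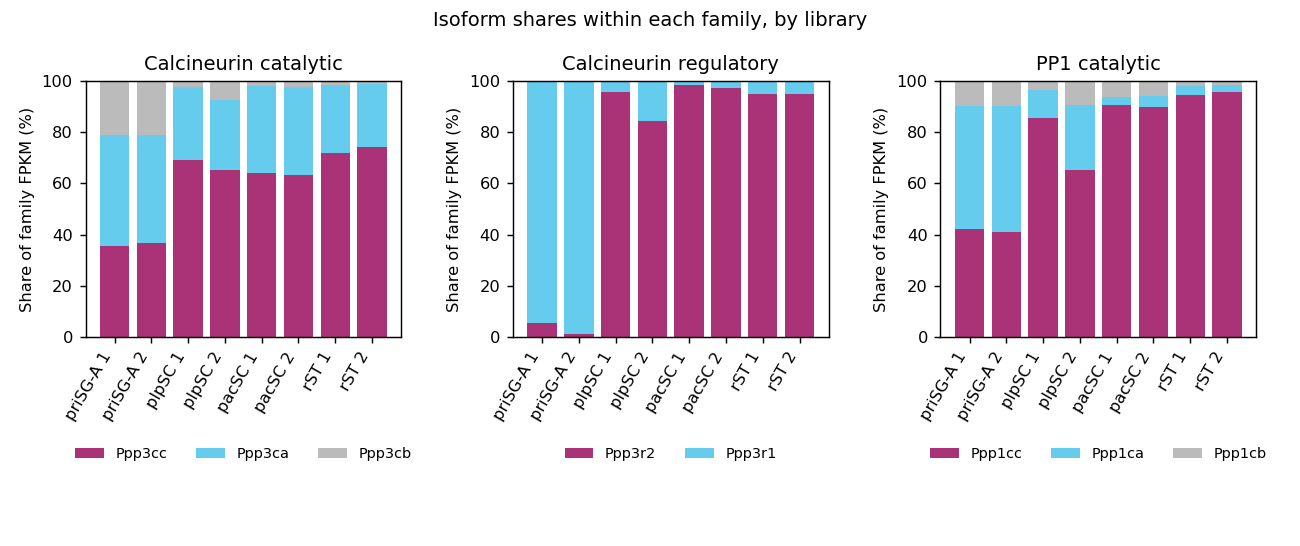
Share of each gene in the summed FPKM of its family, in percent, for each of the 8 libraries, with stage and replicate number under each bar. Ppp3cc, Ppp3r2 or Ppp1cc is at the bottom of each bar. Ppp3r2 goes from under 6% in priSG-A to over 84% in all later libraries. Ppp3cc goes from 35.5% and 36.8% to 63.3% or more, and Ppp1cc from 40.8% and 42.0% to 65.2% or more.

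The sums moved differently in the 2 families. Catalytic calcineurin summed to 36.2 and 36.4 FPKM in priSG-A, 179 and 98.8 in plpSC, 195 and 156 in pacSC and, lastly, 157 and 163 in rST. Regulatory calcineurin summed to 31.6 and 28.3 FPKM in priSG-A, 154 and 74.2 in plpSC, 162 and 127 in pacSC, and then 144 and 141 in rST. The ratio of catalytic to regulatory FPKM therefore lay between 1.09 and 1.33 in all 8 libraries, while the share of Ppp3r2 went from 3.31% to 94.9% and that of Ppp3cc from 36.2% to 73.1% between priSG-A and rST. Its stage means were 1.22 ± 0.101, 1.25 ± 0.115, 1.22 ± 0.0181 and 1.13 ± 0.0495 (SD, n = 2), and an exact permutation test on the log2 ratio over stages gave p = 0.524. A p that misses the threshold does not show that the ratio was constant.

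Within the calcineurin pair of sperm, FPKM of Ppp3cc divided by that of Ppp3r2 was 7.27 and 45.9 in priSG-A and between 0.784 and 1.03 in the other 6 libraries. This ratio was chosen after the values were seen and was not tested. PP1 summed to 416 and 406 FPKM in priSG-A, 362 and 259 in plpSC, 339.5 and 296 in pacSC and, lastly, 336 and 336 in rST, so its total did not follow the rise of calcineurin. PP1 exceeded catalytic calcineurin 11.5 and 11.2 times in priSG-A and between 1.74 and 2.62 times in the later libraries.

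**Figure D4:**
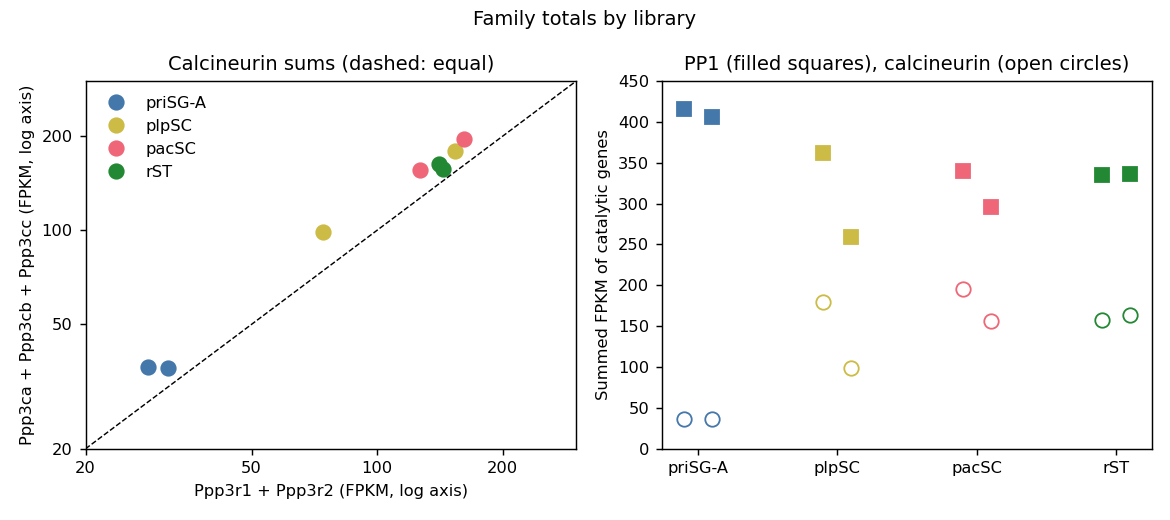
Left, summed FPKM of the catalytic against the regulatory calcineurin genes in each library on log axes, with a dashed line where both are equal. Right, summed FPKM of the PP1 genes (filled squares) and of the catalytic calcineurin genes (open circles) by stage on a linear axis. All 8 libraries lie a little above the dashed line, between 1.09 and 1.33 times, while calcineurin rises and PP1 stays between 259 and 416 FPKM.

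Proteins that activate, inhibit or bind calcineurin were described from a list of 14 genes, of which 13 were tested. At the first step 3 rose, 7 fell and 3 did not pass, where 24.4% of all genes rose and 41.3% fell, with a median of -0.98 against -0.35 for all genes. From plpSC to pacSC 1 rose and 3 fell (4.22% and 21.6% of all genes), and from pacSC to rST 0 rose and 4 fell (17.7% and 16.7% of all genes). From priSG-A to rST 3 rose and 10 fell (29.5% and 53.6% of all genes), with a median of -1.55 against -0.76.

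Spata33, which ties sperm calcineurin to mitochondria, was at 61.1 and 37.5 FPKM in priSG-A, 1942 and 839 in plpSC, 1657 and 1427 in pacSC, and then 2594 and 2946 in rST. It followed Ppp3r2 in being lowest in spermatogonia, and it rose by 4.71 ± 0.47 at the first step (limma, adjusted p = 0.000218) and by 5.82 ± 0.47 from priSG-A to rST (adjusted p = 3.58e-05). Calm2, 1 of the 3 genes for calmodulin, peaked in pachytene spermatocytes. It was at 645 and 597 FPKM in priSG-A, 607 and 576 in plpSC, 1845 and 1352 in pacSC and, lastly, 309 and 207 in rST, rising by 1.42 ± 0.34 into pacSC (adjusted p = 0.0239) and falling by 2.64 ± 0.34 into rST (adjusted p = 0.00419).

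Among the members that fell, Chp2, a homologue of the regulatory subunit, fell from 39.7 ± 1.70 FPKM in priSG-A to 5.16 ± 2.56 in plpSC, 1.66 ± 0.459 in pacSC and 0.653 ± 0.343 in rST (SD, n = 2), and passed at the first step, into pacSC and over the whole course. Tesc, another homologue, fell from 8.89 ± 2.79 to 0.471 ± 0.402 FPKM at the first step (limma, adjusted p = 0.000246). Rcan3, of the family that binds and restrains calcineurin, fell from 12.1 ± 0.0534 FPKM in priSG-A to 0.460 ± 0.121 in rST (adjusted p = 2.87e-05), and from 1.93 ± 0.565 to 0.331 ± 0.114 between plpSC and pacSC (adjusted p = 0.0115). Rcan1, of the same family, fell from 6.98 ± 0.421 to 3.62 ± 0.337 FPKM between pacSC and rST (adjusted p = 0.0175). Ppia, the cyclophilin through which cyclosporin blocks calcineurin, fell from 1158 ± 131 to 529 ± 63.9 FPKM at the same step (adjusted p = 0.0289).

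Of 10 listed calcineurin substrates, 7 were tested, and Nfatc1, Nfatc2 and Nfatc4, transcription factors that calcineurin sends to the nucleus, did not pass the filter on low values. At the first step 2 rose and 3 fell, beside 24.4% and 41.3% of all genes. From priSG-A to rST 2 rose and 5 fell, beside 29.5% and 53.6% of all genes, with a median of -1.33 against -0.76. Nfatc3, the NFAT gene that was tested, was at 7.41 and 7.23 FPKM in priSG-A and 1.03 and 0.840 in rST, a fall by 2.11 ± 0.38 (limma, adjusted p = 0.00117). Crtc3, a CREB coactivator, fell by 1.93 ± 0.22 at the first step (adjusted p = 0.000325) and by 2.62 ± 0.22 over the whole course. Tfeb, a regulator of lysosome genes, fell by 1.08 ± 0.20 into pacSC (adjusted p = 0.0126) and by 1.93 ± 0.20 over the whole course.
Bad, a cell death gene, was at 5.81 and 5.66 FPKM in priSG-A and 32.6 and 15.4 in plpSC, a rise by 1.80 ± 0.36 (adjusted p = 0.00349). Dnm1, a dynamin of endocytosis, rose from 0.453 ± 0.0391 to 1.80 ± 0.340 FPKM at that step (adjusted p = 0.00169).

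PP1 gains its targets from partner proteins, and 47 of 54 listed partners were tested. At the first step 13 rose, 13 fell and 21 did not pass, beside 65.7% of all genes called, with a median of 0.03 against -0.35. From plpSC to pacSC 2 rose and 8 fell, beside 25.8% called. From pacSC to rST 14 rose and 7 fell, beside 34.4% called. From priSG-A to rST 20 rose, 20 fell and 7 did not pass, beside 83% called, with a median of -0.30 against -0.76 for all genes.

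Among the partners that rose, Spz1, a transcription factor of testis that binds PP1, was at 5.84 and 0.310 FPKM in priSG-A, 184 and 60.5 in plpSC, 46.5 and 232 in pacSC, and then 1229 and 1336 in rST. It followed the round spermatid markers library by library, with plpSC replicate 1 above replicate 2 and pacSC replicate 2 above replicate 1, and rose by 5.16 ± 0.97 at the first step (limma, adjusted p = 0.00272) and by 3.61 ± 0.97 into rST (adjusted p = 0.0242). Akap3 and Akap4, scaffolds of the fibrous sheath of the sperm tail, had the same order of libraries within plpSC and pacSC, and rose by 7.34 ± 0.72 and 8.17 ± 0.91 from priSG-A to rST (adjusted p = 5.96e-05 and 9.68e-05). Akap1, a scaffold of mitochondria, rose by 3.52 ± 0.68 into rST (adjusted p = 0.00913). The part that any spermatid RNA in the plpSC and pacSC libraries plays in these values was not tested, nor was its source.

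Ppp1r42, a leucine-rich protein of testis, was by contrast high from plpSC on, with 0.639 and 0.114 FPKM in priSG-A, 57.5 and 23.5 in plpSC, 42.4 and 37.1 in pacSC and, lastly, 64.1 and 66.03 in rST, a rise by 4.81 ± 0.40 at the first step (limma, adjusted p = 0.000181). At the step into pacSC, Phactr3, of a family that binds PP1 and actin, rose by 1.24 ± 0.27 (adjusted p = 0.0184). Ppp1r21 fell by 1.54 ± 0.19 there (adjusted p = 0.00660), as did Ppp1r3f, which directs PP1 to glycogen, by 1.19 ± 0.14 (adjusted p = 0.00647). Outside the naming rule and picked after its values were seen, Ppp1r11, an inhibitor of PP1, was at 21.5 and 17.0 FPKM in priSG-A and 545 and 624 in rST.

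**Figure D5:**
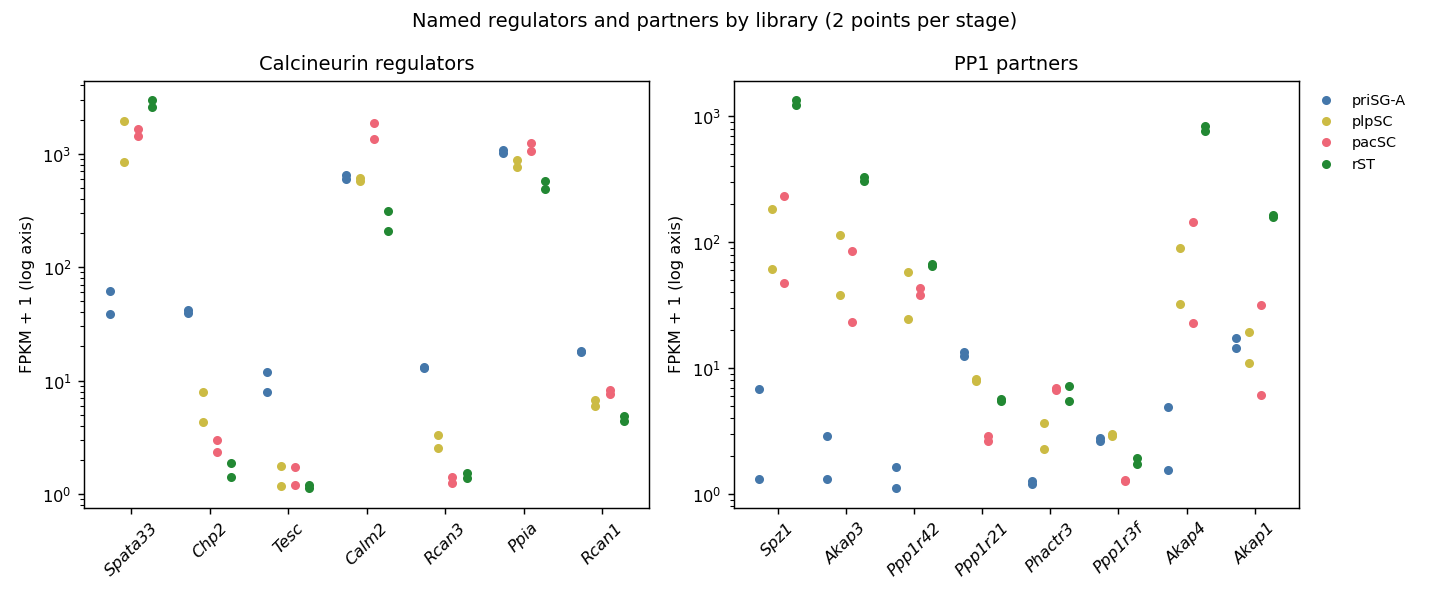
FPKM + 1 on a log axis for the calcineurin regulators and PP1 partners that the naming rule picked, with 2 points per stage. Spata33 is at 839 FPKM or more from plpSC on, and Spz1, Akap3, Akap4 and Akap1 reach their highest values in rST.

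Other catalytic subunits of the same phosphatase family served for comparison, 6 of 7 being tested. At the first step 1 rose, 1 fell and 4 did not pass, beside 65.7% of all genes called. From plpSC to pacSC 1 rose, 0 fell and 5 did not pass, beside 25.8% called. From pacSC to rST 1 rose, 2 fell and 3 did not pass, beside 34.4% called. From priSG-A to rST 1 rose, 3 fell and 2 did not pass, beside 83% called. Ppp2ca, the main catalytic gene of PP2A, was also highest in spermatogonia, with 121 and 126 FPKM in priSG-A, 30.1 and 52.7 in plpSC, 28.7 and 22.3 in pacSC, and then 13.7 and 12.3 in rST, and it fell by 3.15 ± 0.29 over the whole course (limma, adjusted p = 4.7e-05). Its steps differed from those of Ppp1ca in what passed: the change into pacSC (-0.63, adjusted p = 0.141) did not pass, and the fall into rST did (-0.91, adjusted p = 0.0425). Ppp5c was highest in pacSC, at 32.2 and 23.97 FPKM, and fell by 2.03 ± 0.24 into rST (adjusted p = 0.00365). Ppef1, a phosphatase with calcium-binding EF hands, rose from 0.205 ± 0.0197 FPKM in priSG-A to 14.6 ± 0.425 in rST (adjusted p = 8.1e-05).

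For each member, the 3 expressed genes with the highest Pearson's r over the 8 libraries on the log2 scale were found, as a description. These libraries share their stages, so high values of r are common. Ppp3r2 was most like 1700028J19Rik (r = 0.9997), the sperm kinase gene Stk33 and Prps1l1. Ppp3cc was most like Syce1, which encodes a protein of the synaptonemal complex (r = 0.9997), C1qtnf4 and Gm5918. Ppp3ca was most like Rsrc1, Znhit3 and Bola3 (r of 0.998 to 0.996), and Ppp3cb most like 5430411K18Rik, Ubr3 and Smad5 (0.998 to 0.997).
The nearest genes to Ppp3r1 were Rptor, Map3k5 and Vash1 (0.997 to 0.996), those to Ppp1ca were Pop1, Lhpp and Pqbp1 (0.999 each), and those to Ppp1cb were the splicing factor genes Srsf10 and Srsf1 and then Akap8 (0.999 to 0.997). Ppp1cc had the least close neighbours, with Fam108a at 0.990, Tceb2 at 0.986 and Klhl25 at 0.983.

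In the cultured SSCs, 17 circRNAs lay inside the loci of 6 members, and none was listed for Ppp3r2 or Ppp1cc. Back-splice junction reads in all numbered 263855 and 560991 in the treated libraries and 21754 and 30400 in the untreated ones, and 11 of the 17 were listed in a single library. Ppp1cb hosted 5, all with the same first position (32780439 on chromosome 5, mm9). The most read of them, reaching to 32793562, had 60 and 84 reads in the treated libraries and 10 and 23 in the untreated ones. Scaled to 1e6 junction reads per library, that is 227 and 150 reads with treatment against 460 and 757 without, and the difference did not pass the test (log2 change -0.80, edgeR adjusted p = 0.311). Another Ppp1cb circRNA, reaching to 32790078, had 15 and 24 reads with treatment and was not listed without it (adjusted p = 0.198). Scaled likewise, this was 56.8 and 42.8 with treatment, whereas 3 reads make 138 and 98.7 in the untreated libraries. Depth thus limits what its absence there can show.

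At Ppp3ca, the most read circRNA was classed as intronic (chromosome 3, 136460690 to 136464260), with 17 and 15 reads in the treated and 5 and 0 in the untreated libraries (edgeR, adjusted p = 0.827). Ppp3cc hosted a circRNA from 70656167 to 70667313 on chromosome 14 with 18 reads, all in treated replicate 2, and Ppp1cb one reaching to 32793427 with 2 and 10 reads, both in treated libraries. Of the 6 member circRNAs found in at least 2 libraries, edgeR called 0, against 1.85% of 9976 tested over the genome, and 1 had an unadjusted p under 0.05, against 24.5%. DESeq2 called 0 of the 2 that it tested. Read numbers this small limit what a difference could show.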

How the data were processed

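Total RNA of 12 samples was measured. Per the file headers, each of the 8 germ cell files gives 1 FPKM value per gene, deposited with its confidence bounds. Each of the 4 SSC files is a deposited list of circRNAs with counts of back-splice junction reads. Tools named in the submitters' processing notes are BWA, Cuffdiff and TopHat2 2.0.6, and the build is mm9. Neither the strand setting nor the annotation is given in the sources used here. Entries sharing a symbol were summed (22552 symbols), and 0 per-sample columns were left unmapped. Locus starts were raised by 1 to be 1-based.

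Depth was estimated by taking each bound as 2 SD from counting alone. Of the fragment numbers below 200 that this gave, 78.1% to 78.8% lay within 0.05 of a whole number. The 14111 genes that reached 1 FPKM in 2 libraries or more were tested. The test was limma 3.58.1 (R 4.3.3) with trended eBayes, fitted to log2(FPKM + 1) of the 8 libraries with a mean for each stage. It was two-sided, with Benjamini-Hochberg adjustment and a threshold of 0.05. Log2 changes understate those of low genes. Shares of a family's FPKM, and the log2 ratio, were tested by an exact permutation F test over 2520 assignments. For circRNAs seen in 2 libraries or more, edgeR 4.0.16 (quasi-likelihood, on counts) was the test and DESeq2 1.42.0 the alternative. Scripts were tested on simulated data. Python 3.11.15 served for the rest.

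Members and lists were chosen with earlier results of these data known. The text names all 8 members, up to 3 called genes per list and comparison by size of change, 3 genes of highest r per member, and the 5 member circRNAs with most reads. Some listed genes were matched by older symbols through RefSeq GRCm38.p6 (Spata33, Chp2, Tfeb, Ppp1r42 and Ppp1r21 among those named). Alternatives were another pseudocount, filter, scaling and weighting, edgeR on recovered fragments, a replicate block, and leaving out each library. The weights per library came out equal within each stage and lowest in plpSC.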

Additional observations from a re-analysis of the deposited data

How the results depend on the processing

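The direction of all 8 changes from priSG-A to rST was the same under the alternatives run. The member count from plpSC to pacSC, 2 as reported, was 1 with no filter on low values, 0 with a weight per library and 1 with only the 4 libraries compared. From pacSC to rST, also 2, it was 1 with no filter, 4 with a weight per library and 4 without the plpSC stage, an alternative added after seeing the data. The weights were equal for the 2 libraries of a stage (0.19 in plpSC, 0.66 in pacSC, 2.33 in rST and 3.41 in priSG-A), so they weighed stages. Leaving out 1 library gave 7 to 8 calls over the 4 stages, 4 to 8 from priSG-A to plpSC, 1 to 6 from plpSC to pacSC, 0 to 4 from pacSC to rST and 7 to 8 from priSG-A to rST. The cause was not tested. Leaving out 1 library, the rise in share from priSG-A to rST (in percentage points) ran from 35.7 to 38.2 for Ppp3cc, from 89.3 to 93.8 for Ppp3r2 and from 53.0 to 54.4 for Ppp1cc. As a share of log2(FPKM + 1) values, the rise for Ppp3r2 was 54.9 and passed (adjusted p = 0.0381). No label says that replicate numbers pair the samples, and they were not used as pairs. Deviations of like-numbered libraries correlated between -0.31 and 0.38 across genes over the pairs of stages, and at 0.11 across circRNAs between treated and untreated SSCs, whose like-numbered libraries may share a culture. With the block, 0 member circRNAs were called there too. With the replicate number as a block, the rises of 37.0 for Ppp3cc and 53.7 for Ppp1cc no longer passed (adjusted p = 0.0833), where the smallest raw p is 0.0417, and the gene counts were 6, 2, 2 and 8 for the 4 comparisons, as reported. Changes that did not pass also changed sign. After quantile normalization Ppp3cb into pacSC was 0.042, and into rST Ppp3cc was -0.36, Ppp1ca 0.0046 and Ppp1cc -0.29. After median centring Ppp3cb into pacSC was 0.031, and into rST Ppp3r2 was 0.0070 and Ppp1ca 0.036. Rescaled to the FPKM sum without the small RNAs Rpph1, Rmrp and Rprl3, Ppp3cc into rST was -0.35 and Ppp1cc -0.27. Leaving out 1 library, the change into plpSC ran from -0.014 to 0.86 for Ppp1cc. Into pacSC it ran from -0.28 to 0.59 for Ppp1cb, -0.76 to 0.021 for Ppp3cb, -0.16 to 0.78 for Ppp3cc, -0.067 to 1.15 for Ppp3r2 and -0.11 to 0.76 for Ppp1cc. Into rST it ran from -0.24 to 0.13 for Ppp3r2, -0.094 to 0.24 for Ppp3cc and -0.23 to 0.18 for Ppp1ca. With 2 libraries per stage a lone remaining library is assumed to vary like the others, and at 217 and 41 fragments counting limits Ppp3r2 in priSG-A.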
